A study of Mus musculus with 2 samples.

Results

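The deepest activated muscle stem cells of the capture were defined as the barcodes of the 10 percent library with at least 20000 short-read UMIs (unique molecular identifiers, the tags that count captured mRNA molecules) that also had a column in the long-read isoform table. In all, 79 of the 1991 barcodes of that library met this rule. The 79 cells held 75.3% of its short-read UMIs (5099209 of 6772259) and 55.8% of its long-read UMIs (4628237 of 8297203). The sets compared were chosen by measured values: the cells were ranked by a mitotic score, the summed CPM (UMIs of a gene per 1000000 UMIs of the cell) of Ccnb1, Cdc20, Cdk1, Birc5 and Top2a, and divided at the median into 39 mitotic-high and 40 mitotic-low cells. Isoform shares, the percentage of a gene's long-read UMIs that fell on each of its isoforms, were then compared between both sets.

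The muscle stem cells (MuSCs) came from Pax7creERT2;R26RYFP mice on a C57BL6 background, aged 3 months, in which tamoxifen (100 uL of 20 mg/ml, daily for 5 days) switched on YFP in cells that expressed Pax7. Hindlimb muscle was taken 2 weeks after the last injection and YFP-positive cells were sorted. Activated cells came from muscle injured with 40 uL of 1.2% barium chloride and collected 72 h later, and quiescent cells from uninjured muscle. Both were run in a single 10x Chromium v2 3′ capture, whose droplets were divided after reverse transcription into a 10 percent library (short reads and nanopore long reads) and a 90 percent library (short reads only), and no label gives the origin of a single cell. There was thus 1 capture and no replicate. Cells of a capture are not replicates, so no test was made, and every interval below is a 95% interval that covers counting error only.

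Dividing cells pass from DNA synthesis into mitosis, when cyclin B1 (Ccnb1) binds and activates the kinase Cdk1, topoisomerase II alpha (Top2a) untangles the chromosomes, Birc5 sits on the centromeres and Cdc20 drives the exit. A gene can yield several isoforms through splicing and through its choice of start and end. Many genes of the splicing machinery also make isoforms with a kept intron or a premature stop codon, which are held in the nucleus or degraded by nonsense-mediated decay.

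The 10 and 90 percent libraries shared barcodes with matching profiles. Of the barcodes of the 10 percent library, 634 were also among the 3001 of the 90 percent library, and all 79 deep cells were among those shared, with 16704 to 107519 UMIs there (median 56852). The profile of each deep cell correlated with that of its own barcode in the 90 percent library at 0.495 to 0.909 (median 0.844, over 2588 genes), against a median of -0.0141 and a highest value of 0.421 with other barcodes. For 79 of 79 cells the closest profile was that of the same barcode. The 90 percent library is therefore no independent sample of other cells, although the droplets were divided before pooling. How the profiles came to be shared was not tested. With the score taken from the 90 percent library, 77 of 79 cells fell on the same side.

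The markers of the label were checked next. Ccnb1, Cdc20, Cdk1 and Top2a, the fixed markers, stood at 73.8, 146, 119 and 133 CPM in the mitotic-high cells. In the mitotic-low cells they stood at 10.0, 10.9, 4.55 and 14.5 CPM. This difference was made by the score and is no finding. Myod1, the myogenic regulator of activated MuSCs, was at 207 CPM in the mitotic-high and 156 CPM in the mitotic-low cells, and far higher, at 882 CPM, in the 251 other barcodes of the library with at least 1000 UMIs. Rrm2 and Pcna, genes of DNA synthesis, went the other way, at 191 and 96.2 CPM in the mitotic-high, 56.8 and 50.5 CPM in the mitotic-low cells and 27.1 and 35.2 CPM in the other barcodes. Mki67, a proliferation marker, was at 49.3, 6.36 and 21.4 CPM. The quiescence markers Calcr, Chrdl2 and Spry1 were near 0, at 0.345, 0 and 3.79 CPM in the mitotic-high cells and at 0, 0.455 and 1.82 CPM in the mitotic-low cells. In the other barcodes they were at 19.5, 117 and 106 CPM. Heyl, also a quiescence marker, was at 6.21 and 19.1 CPM in the mitotic-high and mitotic-low cells and at 102 CPM in the other barcodes, and Pax7 was at 13.1, 10.9 and 30.8 CPM. The deep cells were thus low in quiescence markers and high in Rrm2 and Pcna beside the rest of the library, while Myod1, and in the mitotic-low cells Mki67, did not follow the label.

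Markers of other cell types were checked as well. Tyrobp and Lyz2, myeloid genes, were at 59.1 and 61.8 CPM in the mitotic-low cells against 0 and 1.03 CPM in the mitotic-high cells. These came from 1 cell with 129 Tyrobp and 135 Lyz2 UMIs, no Myod1 UMI, and 23767 short-read and 30556 long-read UMIs. No other cell held more than 1 UMI of either gene. The other lists were low in sum. The 4 endothelial genes summed to 4.14 CPM in the mitotic-high and 2.73 CPM in the mitotic-low cells, with Cdh5 at 0 and Pecam1 at 3.79 and 2.73 CPM. The 4 fibro-adipogenic genes summed to 8.28 and 2.27 CPM, with 19 UMIs of Dcn, a matrix proteoglycan, in 1 mitotic-high cell. The red cell genes were at 0 in the mitotic-high cells, and Hba-a1 was at 4.09 CPM in the mitotic-low cells. The 5 myofibre genes summed to 22.1 and 52.3 CPM. Among them Acta1 was at 1.38 and 22.3 CPM, with 27 of its 49 UMIs in 1 mitotic-low cell, and Tnnt3 went the other way, at 14.8 and 9.09 CPM.

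Both sets differed in depth as well as in score. The score ran from 259 to 5780 CPM in the mitotic-high cells (median 566) and from 0 to 248 CPM in the mitotic-low cells (median 47.5), of which 12 scored 0. The cells nearest to the cut scored 225.1, 225.5 and 248 CPM below it and 259, 262 and 290 CPM above it, so the division cuts through a continuous range. Short-read UMIs per cell ran from 22272 to 137978 (median 76633) in the mitotic-high and from 20922 to 105788 (median 56791) in the mitotic-low cells. Long-read UMIs summed to 2686985 and 1941252. Above the median depth of the deep cells lay 26 of 39 mitotic-high and 13 of 40 mitotic-low cells. Depth and mitotic score therefore cannot be told apart by the median split alone, and values from a split made separately within the shallower and the deeper cells (the within-depth split) are given beside the main genes. That split used short-read UMIs and did not equalise long-read UMIs. The cell with 137978 short-read UMIs had only 15017 long-read UMIs. In the deeper cells, Gapdh had 10631 long-read UMIs in 19 mitotic-high and 5764 in 20 mitotic-low cells. In the shallower cells it had 5076 and 4752. Long-read depth and score were thus not separated by it. At the minimum of 20000 UMIs, the cells just inside had 20922, 21262 and 21629 UMIs and the barcodes just outside had 19660, 19107 and 18990.

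**Figure D1:**
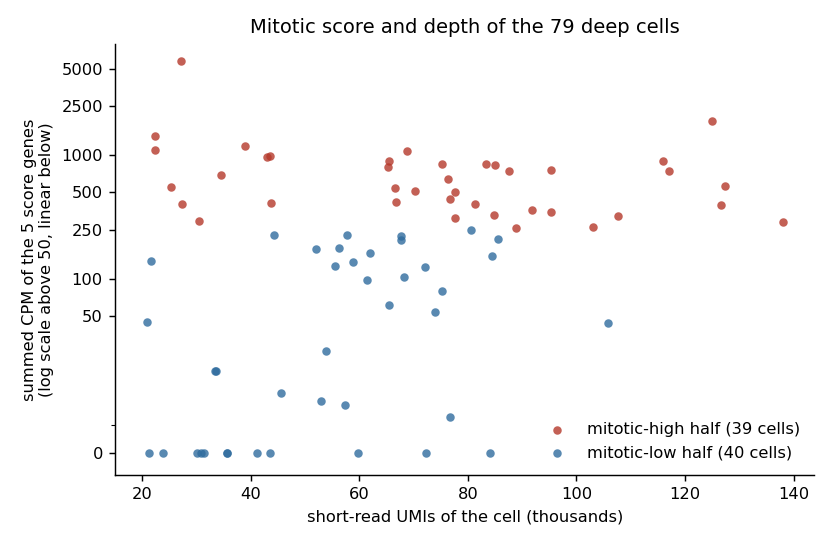
Each point is 1 of the 79 deep cells, with its short-read UMIs on the horizontal axis (in units of 1000) and its mitotic score, the summed CPM of 5 genes (log scale above 50, linear below), on the vertical axis, coloured by the set it was put in. The 39 mitotic-high cells reach deeper (up to 137978 UMIs) than the 40 mitotic-low cells (up to 105788), but both sets cover most of the same depth range.

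The sequences below are shown because reference isoforms of Snrnp70, Mat2a and Srsf3, genes whose isoform shares differed between both sets, differ at these positions. They differ by kept intron bases or an added exon. All are from Gencode transcripts on GRCm38, written 5′ to 3′ on the strand of the gene, and where the coordinates span an intron only the exon bases are printed. Snrnp70 encodes U1-70K, a protein of the U1 particle that marks 5′ splice sites, and lies at chr7:45376453-45395742 on the minus strand. Capitals mark bases of its eighth exon. Snrnp70-201 joins it to the exon before (chr7:45380779-45383843). Snrnp70-216, annotated as a retained intron, reads into it from 2366 kept bases (chr7:45380819-45383184), which are a part of the intron before it.
Snrnp70-201: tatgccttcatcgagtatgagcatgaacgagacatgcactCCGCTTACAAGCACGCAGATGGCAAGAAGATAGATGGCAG
Snrnp70-216: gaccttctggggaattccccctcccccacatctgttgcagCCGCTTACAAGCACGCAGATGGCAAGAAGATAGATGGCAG

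Mat2a encodes the catalytic subunit that makes S-adenosylmethionine, the methyl donor of the cell, and lies at chr6:72432799-72439558 on the minus strand. In Mat2a-201 the capitals mark the start of the last exon, which is joined by splicing (chr6:72434356-72435020). Mat2a-202 keeps the last intron of 585 bases (chr6:72434396-72434980) and meets a stop codon in it, in capitals.
Mat2a-201: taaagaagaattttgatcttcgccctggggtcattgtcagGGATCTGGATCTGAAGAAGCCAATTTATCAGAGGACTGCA
Mat2a-202: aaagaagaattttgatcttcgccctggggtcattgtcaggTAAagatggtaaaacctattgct

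Srsf3, at chr17:29032628-29043373 on the plus strand, encodes a splicing factor of the serine/arginine-rich (SR) family. Srsf3-201 carries an extra exon of 456 bases (chr17:29039454-29039909) with a stop codon, in capitals, and is annotated as a target of nonsense-mediated decay. Srsf3-202 skips it, and its capitals mark the next exon of the coding isoform.
Srsf3-201: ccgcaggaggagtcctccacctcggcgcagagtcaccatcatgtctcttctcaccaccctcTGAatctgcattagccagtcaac
Srsf3-202: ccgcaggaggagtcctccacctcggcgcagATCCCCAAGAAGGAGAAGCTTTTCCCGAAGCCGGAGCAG

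**Figure D2:**
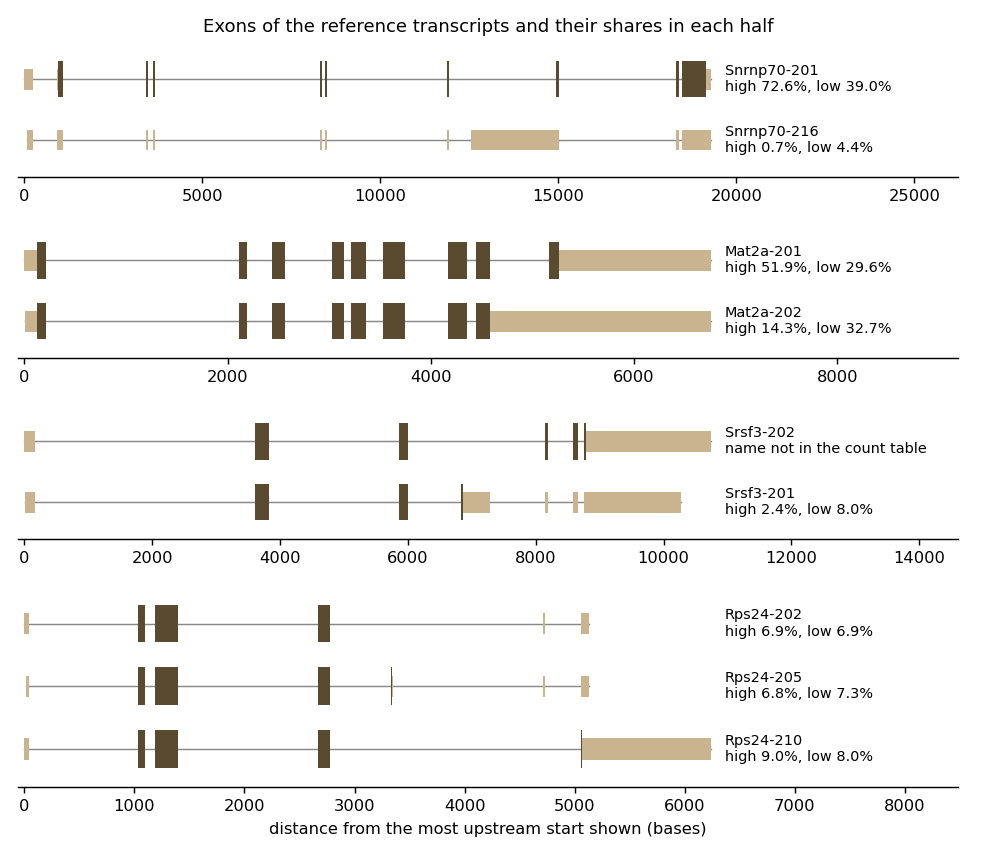
Exons (boxes, dark and tall where coding) and introns (lines) of reference transcripts of the named genes are drawn to scale by distance in bases from the most upstream start shown. Each has its share of the gene's long-read UMIs in the mitotic-high and mitotic-low cells, except Srsf3-202, which was not counted under its name. The kept bases of Snrnp70-216 and Mat2a-202 appear as boxes where Snrnp70-201 and Mat2a-201 have introns, and Srsf3-201 carries 1 exon more than the coding isoform.

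Of 11761 genes with a long-read UMI in the deep cells, 4043 had at least 50 in each set. In 330 of these, 8.16%, the share of some isoform differed by at least 20 percentage points. How often that happened followed the number of UMIs behind the share. It was 267 of 1530 genes (17.5%) with 50 to under 100 UMIs in the set with fewer, 55 of 1142 (4.82%) with 100 to under 200 and 8 of 835 (0.958%) with 200 to under 500. None of the 255 genes with 500 to under 1000 UMIs and none of the 281 with 1000 or more reached 20 points. The median of the largest difference per gene fell over the same classes, from 11.6 to 7.84, 5.04, 3.45 and 1.19 points. Taking the isoform that moved most in each gene favours large values where UMIs are few. Among the 1371 genes with at least 200 UMIs in each set, 8 (0.584%) reached 20 points, and these and the next in size are described first.

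**Figure D3:**
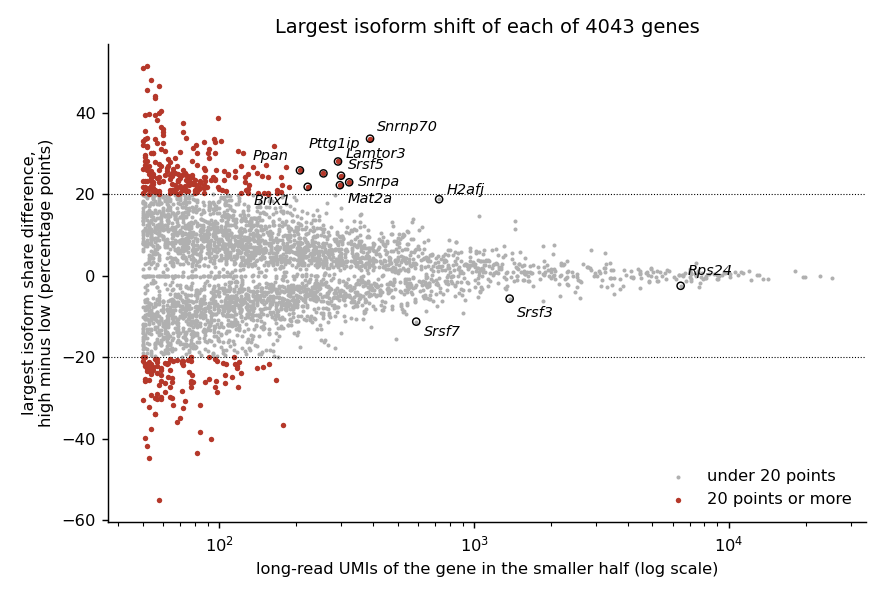
Each point is 1 of 4043 genes, with its long-read UMIs in the set with fewer on the horizontal axis (log scale) and the largest isoform share difference, mitotic-high minus mitotic-low in percentage points, on the vertical axis. The cloud narrows with depth, from a median size of 11.6 points below 100 UMIs to 1.19 points at 1000 or more, and Snrnp70 stands farthest out among genes with at least 200 UMIs.

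Snrnp70 showed the largest difference among genes with at least 200 UMIs in each set. Snrnp70-201, its main coding isoform, took 72.6% of 683 UMIs in the mitotic-high cells (69.1 to 75.9%) and 39% of 390 in the mitotic-low cells (34.1 to 44.0%), 33.6 points apart (27.6 to 39.3). In cells with at least 5 UMIs of the gene, its share ran from 0 to 100% in both sets, with a median of 71.7% over 31 mitotic-high and 30.8% over 29 mitotic-low cells. The single cells overlapped and their centres lay far apart. In the within-depth split the difference was 37.1 points, with 65.4 against 44.8% in the shallower cells and 79.1 against 31.2% in the deeper cells. Over 10 other choices of cells or score it stayed between 31.4 and 37.9 points.

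The UMIs that Snrnp70-201 lacked in the mitotic-low cells lay partly on isoforms that end within the bases kept before the eighth exon. These 6 isoforms, grouped after their values had been seen, took 7.32% of Snrnp70 UMIs in the mitotic-high cells (50) and 23.6% in the mitotic-low cells (92), a difference of -16.3 points (-21.0 to -11.8). Snrnp70-216, the retained-intron transcript printed above, took 0.732 and 4.36%. Most of these isoforms carry no reference name, and their exons were not examined. Among reference-named isoforms alone, Snrnp70-201 differed by 9.33 points (98.2 against 88.9%).

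Srsf5, a splicing factor of the SR family at chr12:80945504-80950507 on the plus strand, moved the same way. Srsf5-201, its main coding isoform, took 69.6% of 693 UMIs in the mitotic-high and 45.0% of 300 in the mitotic-low cells, 24.6 points apart (17.9 to 31.0). Its median share over single cells was 70.7% in 30 mitotic-high and 35.7% in 23 mitotic-low cells. The within-depth split gave 27.5 points, 9 of 10 other choices kept it at 20 points or more, and its range over them was 17.9 to 32.1 points. Its annotated retained-intron isoform took 2.89 and 2.67%. Among reference-named isoforms alone the difference was 8.85 points.

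Srsf3 and Srsf7 are further genes of the SR family. Srsf3-201, the decay isoform printed above, took 2.38% of 3324 UMIs in the mitotic-high cells (1.89 to 2.95%) and 7.99% of 1377 in the mitotic-low cells (6.61 to 9.55%), a difference of -5.61 points (-7.23 to -4.17). The difference was negative in 10 of 10 other choices, from -3.24 to -8.25 points, the first of these in the within-depth split. In Srsf7 an isoform without a reference name took 2.75% of 1198 against 14% of 592 UMIs, a difference of -11.3 points (-14.4 to -8.48), and -8.11 in the within-depth split. The exons of that isoform were not examined, and the annotated retained-intron and decay transcripts of Srsf7 took 3.59 and 3.38%. Its coding transcript Srsf7-208 took 29.2 and 18.2%.

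Mat2a shifted between both transcripts printed above. The spliced Mat2a-201 took 51.9% of 455 UMIs in the mitotic-high cells (47.2 to 56.5%) and 29.6% of 297 in the mitotic-low cells (24.5 to 35.2%), 22.2 points apart (15.1 to 28.9). Mat2a-202, with the last intron kept, took 14.3 and 32.7%, a difference of -18.4 points (-24.6 to -12.2). The medians over single cells lay closer, at 47.2% in 26 mitotic-high and 33.3% in 19 mitotic-low cells. The within-depth split gave 23.8 points, with 43.4 against 34.8% in the shallower cells and 56.6 against 15.5% in the deeper cells. One mitotic-high cell held 21.8% of the Mat2a UMIs of its set, and without the 5 cells with the most long-read UMIs the difference was 15.5 points.

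Lamtor3, an adaptor of the Ragulator complex that brings growth signalling to late endosomes, lies at chr3:137918506-137928900 on the plus strand. Its coding Lamtor3-201 took 84.6% of 447 UMIs in the mitotic-high and 56.5% of 292 in the mitotic-low cells, 28.1 points apart (21.4 to 34.6). An isoform without a reference name filled most of the gap, at 5.37 and 29.1%. Over single cells the median was 89.5% in 31 mitotic-high and 55.9% in 24 mitotic-low cells. The difference was 24.5 points in the within-depth split and 20.3 to 31.3 points over 10 other choices.

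Pttg1ip, a binding partner of securin, had 83.6% of 256 UMIs on Pttg1ip-201 in the mitotic-high and 58.5% of 260 in the mitotic-low cells, 25.1 points apart (17.4 to 32.4), and 16.8 points apart in the within-depth split. That difference lay in the deeper cells (84.6 against 63.7%) and not in the shallower ones (62.1 against 61%). Its median over single cells was 90.6% in 20 mitotic-high against 53.3% in 18 mitotic-low cells. Slc25a11, a mitochondrial carrier, fell just under the threshold, with 82.2% of 569 against 62.5% of 285 UMIs on its coding transcript, 19.8 points apart and 8.97 within depth. H2afj, a histone H2A variant, had an unnamed isoform at 42.6% of 1450 against 23.8% of 728 UMIs, 18.8 points apart and 9.47 within depth.

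For 3 of the 8 genes, the difference was much smaller in the within-depth split, which also moves cells from one set to the other. It was not much smaller with every cell thinned to the shallowest, but thinning leaves fewer UMIs per gene. Only 1027 genes then had enough UMIs, against 4043 before. The UMIs left for these 3 genes were not examined, and whether depth made their differences was not tested. Snrpa, another U1 protein, differed by 22.9 points for an isoform without a reference name (75 against 52%), by 8.85 within depth and by 21.5 thinned. Brix1 and Ppan act in ribosome assembly. Brix1 differed by 21.8 points (91.2 against 69.4%), by 6.52 within depth and by 26.8 thinned. Ppan differed by 25.9 points (54.9 against 29%), by 1.56 within depth, by 47.0 thinned, by 4.44 without the 5 cells with the most long-read UMIs, and by -3.82 when isoforms with the same start and end were grouped.

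**Figure D4:**
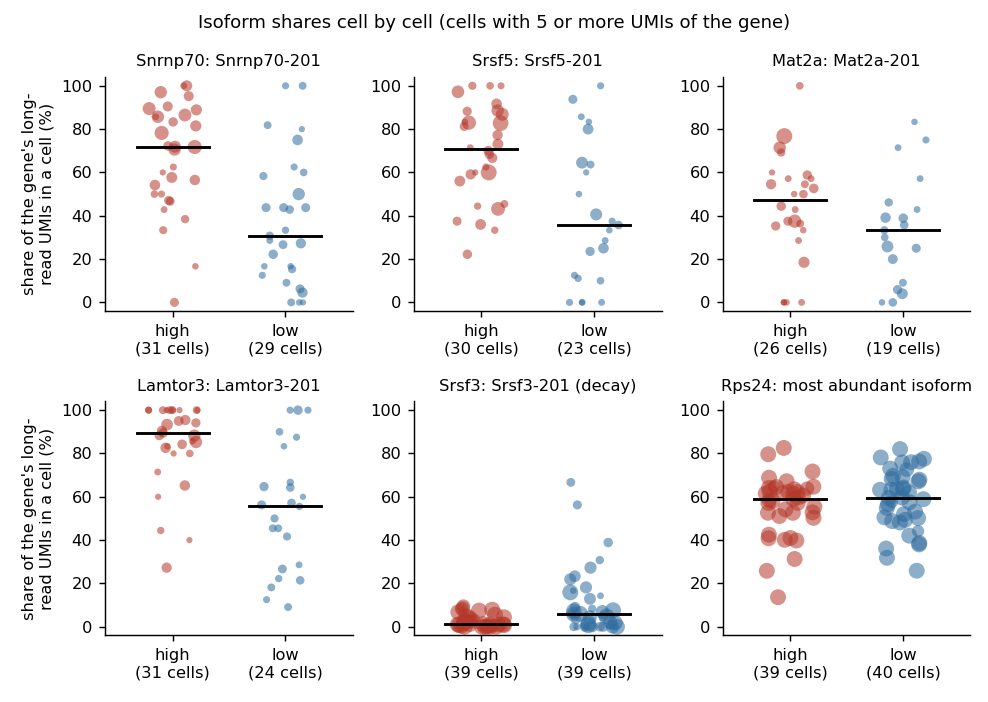
Each point is 1 cell with at least 5 long-read UMIs of the gene, and the vertical axis is the share (percent) of those UMIs on the isoform named above each panel, for mitotic-high and mitotic-low cells. For Snrnp70 the median falls from 71.7 to 30.8% and for Lamtor3 from 89.5 to 55.9%, while single cells of both sets spread over much of the axis.

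**Figure D5:**
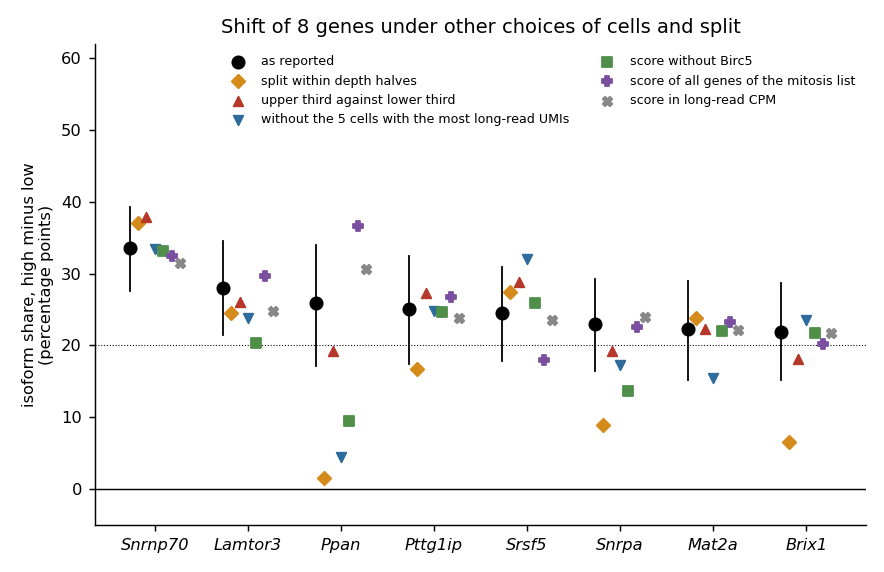
For each gene named on the horizontal axis, the vertical axis gives the isoform share difference, mitotic-high minus mitotic-low in percentage points, for the main split (black, with its 95% counting interval) and for 6 other choices of cells or score (coloured), with the dotted line at 20 points. Snrnp70 and Lamtor3 stay above 20 points under every choice drawn, while Ppan (1.56), Brix1 (6.52) and Snrpa (8.85) drop below it within depth.

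Where both isoforms that moved most carry a reference name and the gene had at least 100 UMIs in each set, the largest differences included those in Pmm2, Fam220a, Tsc22d3 and Nsmce2. Pmm2, a phosphomannomutase of glycosylation, had 74.6% of 130 against 41.6% of 101 UMIs on its main coding isoform, 33.0 points apart, and at least 28.8 points in 10 of 10 other choices. Tsc22d3, the glucocorticoid-induced leucine zipper on chromosome X, went the other way, with Tsc22d3-201 at 45.2% of 166 against 70.7% of 324 UMIs (-25.5 points, and -26.5 within depth). Nsmce2, a SUMO ligase of the Smc5/6 complex, had 76.0% of 154 against 50.9% of 108 UMIs on its main coding isoform and 17.4 points within depth.

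Fam220a differed by -27.3 points (55.1 against 82.4%) and by 0.702 within depth, so its direction did not hold.

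The 15 genes with the largest differences of all had 50 to 173 UMIs in each set, and their sizes ran from 39.8 to 55.1 points. They rested on few cells. Rprd1b, which binds the tail of RNA polymerase II, had 59.3% of 54 against 7.69% of 52 UMIs on 1 isoform, with 3 and 3 cells that held at least 5 of its UMIs. Gmcl1 had 78.9% of 76 against 28% of 50, with 6 and 5 such cells. Mrgbp, a subunit of a histone acetyltransferase complex, moved between reference transcripts, with its coding isoform at 64.7 and 16.7% and a retained-intron transcript at 25.9 and 72.2%, with 7 and 5 such cells. Mkrn1, a ubiquitin ligase, had 1.08% of 93 against 41.1% of 95 UMIs on a coding transcript. Higher shares in the mitotic-high cells were also seen in Mettl22 (46.5 points), Cap2 (45.5), Eif2b4 (44.2), Exoc7 (43.7), Dele1 (40.6), Tbl3 (40.0) and Cstf1 (39.8).

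Lower shares were seen in Sncg (-44.7 points), Krit1 (-43.6) and Dpy19l1 (-41.9). The largest of the 15, 1810013L24Rik (-55.1 points), rested on 7 and 41 UMIs and came to 1.33 points within depth, so its direction did not hold.

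Of the 5 genes of the score, 3 had enough long-read UMIs. Cdc20-201 took 89.4% of 1139 UMIs in the mitotic-high and 87.8% of 74 in the mitotic-low cells, a difference whose counting interval includes 0 (-4.41 to 11.0 points). Birc5 had 86.1% of 955 and 88.1% of 143 UMIs on its main coding isoform (-6.96 to 4.61 points). Ccnb1 had an unnamed isoform at 54.6% of 705 against 35.5% of 76 UMIs, 19.1 points apart and 1.40 within depth. Cdk1 and Top2a had 28 and 32 long-read UMIs in the mitotic-low cells, too few for the minimum of 50.

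Of the mitosis list (30 of 78 members with enough UMIs), 1 gene, Prc1, reached 20 points, which is 3.33% of those tested against 8.16% of all genes. Prc1 bundles the microtubules of the spindle midzone. One of its coding transcripts took 17.2% of 192 UMIs in the mitotic-high against 38.9% of 54 in the mitotic-low cells, and the difference was -10.9 points within depth. The share of the most abundant isoform was higher in the mitotic-high cells for 12 and lower for 17 of the 30 genes (median -0.998 points).

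Of the DNA replication list, 3 of 31 genes tested (9.68%) reached 20 points. Mcm7, a subunit of the replicative helicase, had 76.4% of 322 against 55.0% of 129 UMIs on an unnamed isoform and 23.4 points within depth. Cdt1, which loads that helicase, differed by -24.3 points (49.1 against 73.3%), and by -24.5 within depth. Rpa1, which coats single-stranded DNA, differed by -21.9 points, and by -14.7 within depth. Rrm2, the small subunit of ribonucleotide reductase and the member with the most UMIs, had 82.7 and 87.6% on its coding transcript. The most abundant isoform was higher in 20 and lower in 10 of these genes (median 4.18 points).

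The splicing lists leaned to one side. The share of the most abundant isoform was higher in the mitotic-high cells for 10 of 12 SR genes (median 8.42 points), 37 of 44 spliceosome genes (3.29) and 18 of 24 hnRNP genes (3.28). Over all 4043 genes it was higher for 2425 (60%) and lower for 1536, with a median of 1.54 points. In these and the other lists, and over all genes, the most abundant isoform was picked by UMIs summed over both sets. The mitotic-high cells gave more of these UMIs (2686985 against 1941252), so the pick favours isoforms common in them, by an amount that was not tested. At 20 points, the counts were 1 SR gene (8.33%, Srsf5), 3 spliceosome genes (6.82%, Snrpa, Snrnp70 and Sf3a1) and 0 hnRNP genes, near or below the 8.16% of all genes. Sf3a1, a subunit of the U2 particle, had 63.1% of 65 against 37.8% of 74 UMIs on an unnamed isoform. Hnrnpa1, the hnRNP with the most UMIs, had its main coding transcript at 69.6% of 3598 and 62.1% of 2054 UMIs, 7.55 points apart.

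Retained-intron and nonsense-mediated decay transcripts took 2.38% of the reference-named UMIs in the mitotic-high cells (29156 of 1226771) and 2.80% in the mitotic-low cells (24597 of 879027), a difference of -0.422 points. Ribosomal protein genes held most of them, 17183 of the 29156 and 14359 of the 24597 UMIs, at 4.29 and 4.59% of the reference-named UMIs of those genes. Retained-intron transcripts took 1.04 and 1.3% and nonsense-mediated decay transcripts 1.34 and 1.5%. Cell by cell, the combined share ran from 1.75 to 3.86% (median 2.36%) in the mitotic-high and from 1.70 to 4.44% (median 2.80%) in the mitotic-low cells, so the sets overlapped over most of their range. Reference-named isoforms with an exon across a whole intron of a coding transcript, a broader class, took 5.27 and 6.19%. Over single cells, that class ran from 4.21 to 7.21% (median 5.29%) in the mitotic-high set. In the mitotic-low set it ran from 4.10 to 15.6% (median 5.93%). Gene by gene, the annotated class was lower in the mitotic-high cells for 226 and higher for 144 of the 370 genes that had it (median -0.509 points).

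By list, this class took 7.0% of the reference-named UMIs of the SR genes in the mitotic-high and 14.3% in the mitotic-low cells, and Srsf3-201 made up 79 of these 193 and 110 of these 171 UMIs. The coding Srsf3-202 was not counted under its name, so the 2758 and 1198 reference-named UMIs behind these shares leave out coding Srsf3 UMIs. Srsf3 alone had 3324 and 1377 UMIs, so 7.0 and 14.3% are not shares of all SR UMIs. The broader class by exon structure went the other way in the SR genes, at 24.9 and 21.4%. Of the 5 SR genes with such a transcript and enough UMIs, 2 were lower in the mitotic-high cells (Srsf3, and Tra2a with 9.36 against 13.1%) and 3 were higher, by up to 1.12 points. In the spliceosome list the annotated class took 2.17 and 3.54%, and of 10 genes 7 were lower and 3 higher. The genes given here for this class, other than Srsf3 and Ddx5, were picked after their values were seen. Sf3b1, the branch-point factor bound by splicing inhibitors, had 4.51 against 9.87% and the helicase Ddx5 had 2.75 against 6.12%. Prpf31 went the other way, with 11.0 against 5.45%. Among the 3 hnRNP genes, Hnrnpl had 5.60 against 9.42% and the other 2 were slightly higher in the mitotic-high cells. The centromeric histone Cenpa, the only mitosis gene with such a transcript and enough UMIs, had 5.59 against 11.7%. Both DNA replication genes went the other way, with Pola2, a subunit of the primase complex, at 10.2 against 0% and the chromatin factor Atad2 at 22.3 against 14.8%.

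Isoform makeup in general was slightly more concentrated in the mitotic-high cells. The median share of the most abundant isoform, again picked by UMIs summed over both sets, was 62% against 59.2%. Its median difference of 1.54 points came to 0.559 points, with 564 genes higher and 445 lower, when each cell was thinned to the shallowest. In draws of 50 UMIs, which equalise the UMIs of a gene but not those of a cell, a median gene was expected to show 5.55 isoforms in the mitotic-high and 5.80 in the mitotic-low cells (median difference -0.12), with 1566 genes higher and 2392 lower. Isoforms without a reference name took 54.3 and 54.7% of all long-read UMIs. Of the 134 called genes whose moved isoform was reference-named, 92 moved by a coding transcript that was higher in the mitotic-high cells and 32 by one that was lower. The same lean was present over all genes. Where the most abundant isoform was a reference-named coding one, it was higher for 1131 and lower for 720 of 1893 genes. Among the 138 called genes of this kind it was higher for 102 and lower for 36.

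The starts and ends of reference-named isoforms were taken from the annotation and not from the reads. Those of other isoforms came from the coordinates in the isoform name. Only starts or ends with at least 10% of a gene's UMIs were used. Among 1853 genes with more than 1 such 3′ end, the end farthest downstream took a larger share in the mitotic-high cells for 1054 and a smaller share for 797 (median 1.28 points). Of these, 92 were at least 20 points higher and 37 at least 20 points lower. The median was 0.933 points in the within-depth split and 0.763 points (214 genes higher, 178 lower) with each cell thinned to the shallowest. The start farthest upstream was higher for 593 genes and lower for 546 of 1143 (median 0.302 points). Within depth its median was 0.930 points, like that of the end, while it came to -0.0774 points without the 5 cells with the most long-read UMIs.

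Rps24, a ribosomal protein gene at chr14:24487125-24496959 on the plus strand, ends its protein in different ways by using or skipping small exons of 20 and 18 bases. These 3 reference transcripts are shown because their stop codons, in capitals, fall at different places after the same stretch (from chr14:24493464-24495444 for Rps24-202, chr14:24493467-24494069 for Rps24-205 and chr14:24493473-24495798 for Rps24-210, introns left out).
Rps24-202: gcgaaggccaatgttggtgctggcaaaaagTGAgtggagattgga
Rps24-205: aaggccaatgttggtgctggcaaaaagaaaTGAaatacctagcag
Rps24-210: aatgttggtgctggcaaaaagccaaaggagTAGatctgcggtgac

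The Rps24 isoforms were nearly alike in both sets. The most abundant isoform, without a reference name, took 54.2% of 8129 UMIs in the mitotic-high and 56.7% of 6457 in the mitotic-low cells, a difference of -2.46 points (-4.08 to -0.839) that came to 0.109 within depth. Rps24-202 took 6.91 and 6.91%, Rps24-205 took 6.83 and 7.33%, and Rps24-210 took 9.02 and 7.98%. Cd82, a tetraspanin of the MuSC surface, moved by at most -3.22 points (15.8% of 1193 against 19.0% of 1075 UMIs), and by -0.0787 within depth.

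The ribosomal protein genes and some other deep genes barely moved either. This did not hold for every deep gene. Among genes with at least 1000 UMIs in the set with fewer, the largest difference was 14.6 points. Of 80 ribosomal protein genes tested, 0 reached 20 points, the most abundant isoform was higher for 38 and lower for 41, and the median size of the largest difference was 0.673 points against 7.50 over all genes. Rplp0 differed by -0.452 points and Rps2 by -0.396. Gapdh differed by 0.366, Eno1 by 1.40, Hspa8 by 0.892, Tubb5 by 1.41 and Vim by -0.713 points. Several of these genes have processed copies in the genome. Reads that fitted more than 1 transcript equally were dropped by the authors, which can remove reads of such genes.

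Other lists held single genes at 20 points. In the actin list these were Actn4, an actin crosslinker, with 57.7% of 281 against 37.1% of 175 UMIs on a coding transcript (17.0 points within depth), and Flna, a filamin, at 20.4 points (7.84 within depth), or 2 of 47 genes (4.26%). Glycolysis had Pfkp at 31.6 points on 70 and 52 UMIs (1 of 13, 7.69%), and its most abundant isoforms were higher in 12 of 13 genes (median 1.40 points). The immediate-early and heat shock list had Fosb at 25.7 points on 77 and 62 UMIs (1 of 19, 5.26%). None of 15 myogenic genes reached 20 points. Cdkn1a, the cell cycle inhibitor p21, had its main transcript at 65.0 and 71.2% (-6.18 points).

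Gene levels from the short reads were compared at a 2-fold threshold on CPM, with 10 CPM added to both sides. Of 6255 genes with enough UMIs, 127 (2.03%) were higher and 67 (1.07%) lower in the mitotic-high cells. The mitosis list had 45 of 63 genes higher, with a median log2 ratio of 1.28, and DNA replication 14 of 49, with 0.81, which follows from how the cells were divided. The splicing lists were slightly higher as a whole without reaching 2-fold, at medians of 0.49 for SR genes (0 of 12 at 2-fold), 0.36 for hnRNP genes (0 of 26) and 0.28 for spliceosome genes (1 of 48), beside 0.06 over all genes. Ribosomal protein genes were at -0.05.

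The myogenic list was lower, at a median log2 ratio of -0.46 with 3 of 21 genes at 2-fold. Myog, which drives differentiation, was at 17.2 CPM in the mitotic-high and 54.1 CPM in the mitotic-low cells. In the mitotic-low set, 1 cell at 3810 CPM held 81 of the 119 Myog UMIs. Both sets had 6 cells with a Myog UMI, so the difference in sums rests largely on that cell. All 4 immune genes with enough UMIs were lower, with nearly all their UMIs in the single cell described above. In 1 capture of this kind, fewer molecules of a gene per cell and fewer cells with the gene are both contained in these sums.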

How the data were processed

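The values were UMI counts deposited by the authors. Short-read gene counts came from scPipe and long-read isoform counts from FLAMES (minimap2 2.17, GRCm38.p6, per the submitters' processing notes). Counts were summed over the cells of each set, and shares carry exact Clopper-Pearson 95% intervals and differences Newcombe intervals (scipy 1.17.1, Python 3.11.15). Genes needed 50 long-read UMIs in each set, and 20 points counted as called. Reference names and sequences came from Gencode transcripts on GRCm38. Of 68065 isoforms, 7754 carried a reference name. The code was tested on simulated data.

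The genes named were those of the score and markers, Rps24 and Cd82, the 15 largest differences, the 10 largest at 200 UMIs, the 5 largest between reference-named isoforms at 100 UMIs, and in each list the called genes (at most 4) and the 2 with the most UMIs. Members and lists were chosen with earlier results of these data known. Scrublet (scanpy 1.11.5) marked 0 of 330 barcodes as doublets, and no doublet was removed. Whether it can find doublets in these data was not tested, so doublets may remain. One gene that this rule names is not reported here.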

Additional observations from a re-analysis of the deposited data

How the results depend on the processing

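No paired analysis was possible because the comparison lies within 1 capture and no test was made. The count of 330 genes at 20 points depended most on UMIs per gene. It was 29 (of 1027 genes) with each cell thinned to the shallowest, 812 with at least 30 UMIs, 63 with 100, 8 with 200, 1450 at 10 points, 74 at 30 points, 198 for isoforms over 15 UMIs and 32 for reference-named isoforms only. Of the 330, 125 (37.9%) had the same isoform and direction called in the within-depth split, 152 (46.1%) with the score without Birc5, 100 (30.3%) in the tails of the score, 5 (1.52%) with each cell thinned, and 284 with the score from the 90 percent library, a choice added after seeing the data. The choice to leave out the cell with Tyrobp and Lyz2, also added after seeing the data, kept 316.

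The difference in unnamed isoforms (-0.375 points) was -0.705 with the long-read score, -0.929 for the tails of the score (the highest 27 against the lowest 26 cells) and -0.279 within depth. That in retained-intron and decay transcripts (-0.422) was -0.475 with a minimum of 15000 UMIs, -0.498 with the long-read score, -0.621 for the tails and -0.916 for the class by exon structure, added after seeing the data. The downstream 3′ end (1.28) was 0.742 without Birc5 and 0.763 thinned, and the upstream start (0.302) 0.997 for the tails. Expected isoforms (-0.12) came to -0.0811 without Birc5, -0.154 with the long-read score, -0.161 for the tails, -0.0886 without the 5 deepest cells, -0.165 at 100 UMIs and -0.171 at 200. The most abundant isoform (1.54) was 1.85 with the long-read score, 2.0 for the tails, 1.07 without the 5 deepest cells, 0.559 thinned and 1.03 at 200 UMIs. The 194 genes at 2-fold became 479 for the tails, 515 with 1 CPM added, 39 with 50 CPM added and 82 at 200 short-read UMIs. The upstream start changed sign without the 5 deepest cells (-0.0774) and with starts within 200 bases joined (-0.00761), and no other of these summaries did. Among differences of at least 20 points, the direction turned for 1810013L24Rik (1.33) and Fam220a (0.702) within depth and for Ppan (-3.82) with isoforms of the same start and end grouped. Among smaller ones it turned for Rps24 (0.109), Birc5 (1.81) and Rplp0 (0.154) within depth, the latter pair also without Birc5 in the score (1.66 and 0.0153), Cd82 (0.552) without the 5 deepest cells, Hnrnpa3 (-0.0647) thinned and Ddx5 (-0.673) with same ends grouped. The causes were not tested.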
